A study of Mus musculus with 7 samples.

Results

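The genes described here are 10 genes of the antioxidant program of the transcription factor NRF2, looked up by their exact names in the deposited table of 55401 mouse genes. They are *Nfe2l2*, which encodes NRF2, its inhibitor *Keap1*, and 8 genes that NRF2 is known to activate: *Slc7a11*, *Gclc*, *Gclm*, *Txnrd1*, *Srxn1*, *Prdx1*, *Nqo1*, and *Hmox1*. Each name matched 1 row of the table, and all 10 passed the filter on low values, which kept 16429 genes. The set was selected on the normalised read counts of these same samples, with the comparison of *Trpc1-/-* and WT already in view. The differences between the genotypes are therefore given for these 10 genes as a description, and where calls from the fits across all genes are counted, they support nothing about the set.

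NRF2 is held in the cytoplasm by KEAP1, which hands it to a CUL3 ubiquitin ligase for degradation. When reactive molecules modify cysteines of KEAP1, NRF2 escapes, enters the nucleus, pairs with a small MAF protein, and activates genes that carry an antioxidant response element (ARE), whereas BACH1, which is released by heme, represses part of the same genes. The activated genes make glutathione, reduce thioredoxin and peroxiredoxins, detoxify quinones, and break down heme. In joint tissue the program is known for its role against oxidative stress in chondrocytes, and it is also used by red cell precursors and by macrophages that take up old red cells. NRF2 is regulated chiefly as a protein, so the level of its mRNA is not a measure of its activity.

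RNA was measured in knee joint tissue of male C57BL/6J mice that had destabilization of the medial meniscus (DMM), a surgical model of osteoarthritis, at 10 weeks of age. All samples were collected 2 weeks after DMM, each pooled from 2 to 3 mouse knees. The labels give 4 WT samples and 3 from *Trpc1-/-* mice (the Methods give the group sizes the other way round). The *Trpc1-/-* mice carry the Trpc1tm1Lbi allele, which lacks exon 8, in every cell, so a difference cannot be assigned to cartilage. Sham-operated knees were not analysed here, and the comparison asks how the genotypes differ after DMM, not what DMM does. The labels name articular cartilage and the Methods add subchondral bone.

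Total counts on genes lay between 52142451 and 118254070 per sample, with the lowest in WT replicate 1. Levels are given as CPM, read counts scaled to the library size with edgeR's TMM factors, and 3 counts, taken as the floor, correspond to at most 0.0575 CPM. *Trpc1*, counted over the whole gene with its remaining exons, was at 4.33 to 4.83 CPM in WT and 3.04 to 3.79 CPM in *Trpc1-/-* samples. The 12 cartilage markers examined were present in all 7 samples, but so were markers of marrow cells, and the 18 erythroid markers with values summed to between 20409 and 58778 CPM per sample. In bulk tissue, fewer cells of a type and less RNA per cell cannot be told apart. WT replicate 1 stood apart from the other samples, with a mean correlation of 0.947 with them across genes against 0.973 or more for each other sample. For some of the genes whose values rest on it, the value without it is also given below.

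Matches to the sequence that NRF2 is known to bind come first. The RefSeq promoter windows of the GRCm38.p6 build, which run from 250 bases before to 50 bases after a start site, were searched on both strands for the core of the ARE, TGACNNNGC. Windows were given for 8 of the 10 genes, and for *Gclc* and *Hmox1* no window was given. The core was found in 5 of the 8, namely *Nfe2l2*, *Gclm*, *Txnrd1*, *Srxn1*, and *Prdx1*. Over all 32851 windows, 12.4% held the core, and among the 11138 tested genes with a window it was 16.8%. The matches are printed below in the direction of the gene, with the core in capitals and 10 bases on either side, to show the letters through which NRF2 could bind these genes. Only that of *Nfe2l2* lies on the strand of the gene, and the other 4 are printed as the reverse complement of the core.
Nfe2l2: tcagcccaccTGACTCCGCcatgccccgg
Gclm: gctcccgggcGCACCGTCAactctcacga
Txnrd1: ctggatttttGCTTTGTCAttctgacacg
Srxn1: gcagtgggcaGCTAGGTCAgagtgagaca
Prdx1: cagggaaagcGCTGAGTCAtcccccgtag

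The stretch of *Nfe2l2* lies at chr2:75704885-75704913 on the minus strand, that of *Gclm* at chr3:122245413-122245441, that of *Txnrd1* at chr10:82859104-82859132, and that of *Prdx1* at chr4:116685456-116685484, all on the plus strand. These 4 cores begin 240, 134, 92, and 133 bases before a start site, whereas that of *Srxn1* (chr2:152105542-152105570, plus strand) begins 29 bases after it, in the transcribed part. *Txnrd1* has 3 windows, and 1 of them held the core. In *Prdx1* the core overlaps a match to TGANTCA, the sequence bound by AP-1, which was found in 7.81% of all windows and, among the 10 genes, also in that of *Srxn1*, apart from its core. To show the setting of the core in the member with the clearest separation of the groups and in one whose groups overlapped, the 250 bases before the start site are printed for *Gclm* (chr3:122245307-122245556, plus strand) and *Prdx1* (chr4:116685349-116685598, plus strand), with the core in capitals.
Gclm: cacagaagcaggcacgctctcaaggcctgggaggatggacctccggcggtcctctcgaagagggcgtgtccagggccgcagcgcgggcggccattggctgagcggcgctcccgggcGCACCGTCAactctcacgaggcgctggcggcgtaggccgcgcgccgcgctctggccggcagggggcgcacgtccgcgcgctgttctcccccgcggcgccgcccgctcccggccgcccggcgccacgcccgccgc
Prdx1: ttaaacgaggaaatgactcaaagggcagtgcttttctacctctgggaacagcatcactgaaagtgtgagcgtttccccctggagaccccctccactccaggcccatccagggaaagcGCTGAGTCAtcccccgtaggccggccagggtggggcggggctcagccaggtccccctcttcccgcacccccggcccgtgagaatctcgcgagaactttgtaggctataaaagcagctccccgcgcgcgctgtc

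The window of *Gclm* was 79.7% G and C, against 60.7% for that of *Prdx1* and 44.7% for that of *Slc7a11*. A match of letters is not a bound site. Windows of this length leave out distal elements, through which *Hmox1* is known to respond.

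To compare levels between genes, CPM were divided by the length of each gene's merged exons in GENCODE M21 (CPM per kb). In WT samples the highest level was that of *Prdx1*, 39.0 ± 5.62 CPM per kb (SD, n = 4), closely followed by *Hmox1* at 38.4 ± 9.72, and the 2 did not differ beyond their spread. *Nfe2l2* followed at 20.6 ± 2.98 and *Gclc* at 17.5 ± 0.466, with overlapping ranges, and *Gclm* at 13.7 ± 0.246 CPM per kb lay below both. *Txnrd1* (8.06 ± 0.577), *Keap1* (7.34 ± 0.709), *Srxn1* (6.39 ± 0.226), and *Nqo1* (5.17 ± 1.16) came next, each with a range that overlapped that of its neighbour in this order. *Slc7a11* was lowest, at 0.691 ± 0.0453 CPM per kb, and was last in every sample. With the longest transcript as the length, *Nfe2l2* (31.6), *Txnrd1* (15.8), and *Slc7a11* (1.04 CPM per kb) were over 1.5 times as high, and *Txnrd1* passed *Gclm* (15.4). With merged exons, *Hmox1* was above *Prdx1* in WT replicates 2 and 3 and below it in WT replicates 1 and 4. The order in WT replicates 2 and 3 did not hold with the longest transcript. By that length the WT means were 51.7 for *Prdx1* and 42.9 CPM per kb for *Hmox1*. In all 3 *Trpc1-/-* samples *Hmox1* was above *Prdx1*, at 68.3 ± 10.2 against 44.7 ± 1.21 CPM per kb of merged exons (SD, n = 3).

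**Figure D1:**
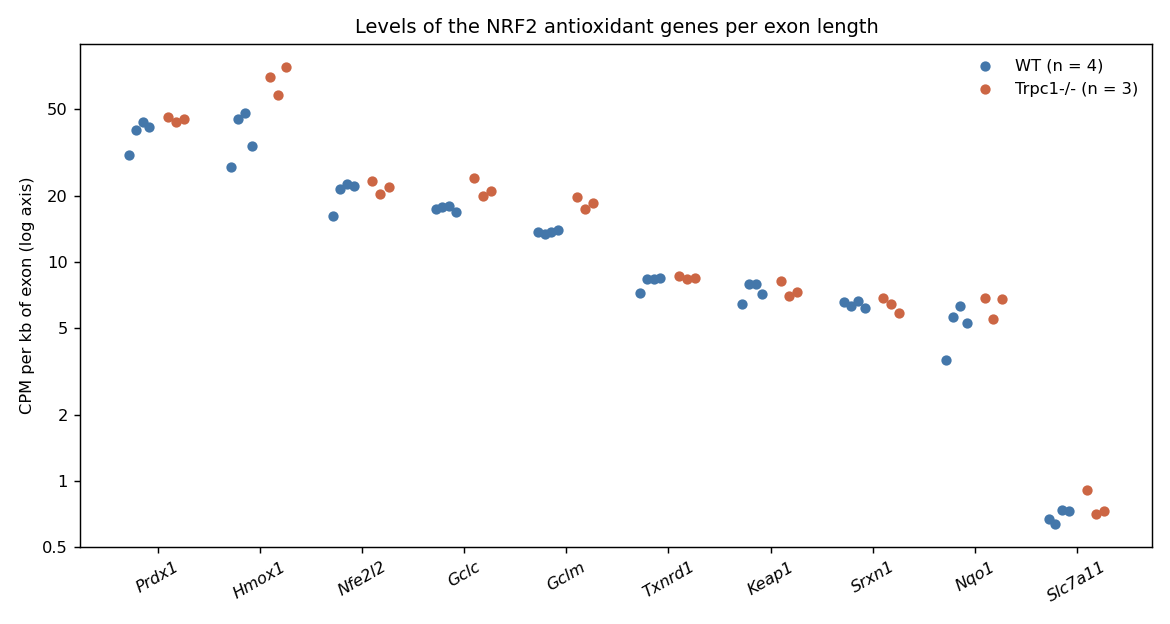
Each point is the level of 1 gene in 1 sample as TMM-normalized CPM per kb of exon, on a log axis, with WT samples in blue (n = 4) and *Trpc1-/-* samples in orange (n = 3). Genes are ordered by their WT mean, from *Prdx1* (39.0) to *Slc7a11* (0.691).

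*Nfe2l2* and *Keap1*, the transcription factor and its inhibitor, were at similar levels in both genotypes. *Nfe2l2* (ENSMUSG00000015839, chr2:75675513-75704641) was at 61.5, 81.4, 85.7, and 84.3 CPM in WT replicates 1 to 4 and at 88.6, 77.6, and 83.0 CPM in *Trpc1-/-* replicates 1 to 3. Apart from WT replicate 1, which was low, the 2 groups lay in the same range. The log2 fold change (logFC) of *Trpc1-/-* over WT was 0.086 (SE 0.13), and −0.015 without WT replicate 1. It was 0.22 among the samples with library numbers in the 1300s, 2 WT (replicate 1 among them) and 3 *Trpc1-/-*. *Keap1* (ENSMUSG00000003308, chr9:21229730-21239361) was at 30.2, 37.1, 37.2, and 33.4 CPM in WT and 38.3, 32.9, and 34.2 CPM in *Trpc1-/-* samples, with a logFC of 0.026 (SE 0.097). Its groups overlapped throughout, and the sign of its logFC turned without WT replicate 1 (−0.033) and without *Trpc1-/-* replicate 1 (−0.039). Within a sample, the ratio of *Nfe2l2* to *Keap1* CPM averaged 2.27 ± 0.208 (SD, n = 4) in WT against 2.37 ± 0.0557 (SD, n = 3) in *Trpc1-/-* mice, again with overlap.

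Among the 3 genes of cystine uptake and glutathione synthesis, *Gclc* and *Gclm* were higher in all *Trpc1-/-* samples, and *Slc7a11* overlapped. GCLC and GCLM are the catalytic and the modifier subunit of glutamate-cysteine ligase, the rate-limiting enzyme of glutathione synthesis, and SLC7A11 is the light chain of the transporter that brings in cystine for it. *Gclm* (ENSMUSG00000028124, chr3:122245557-122270732) was at 86.1, 84.4, 86.0, and 88.2 CPM in WT replicates 1 to 4 and at 124, 110, and 117 CPM in *Trpc1-/-* replicates 1 to 3. The WT samples were nearly equal, and every *Trpc1-/-* sample lay at least 21.5 CPM above the highest of them. The logFC of *Gclm* was 0.44 (SE 0.072), a 1.36-fold difference, and leaving out any 1 sample gave values between 0.40 and 0.48.

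*Gclc* (ENSMUSG00000032350, chr9:77754535-77794485) was at 65.6, 67.2, 67.4, and 63.6 CPM in WT and at 91.3, 75.5, and 79.2 CPM in *Trpc1-/-* samples. Its groups did not overlap either, though *Trpc1-/-* replicate 1 stood above the other two. The logFC was 0.31 (SE 0.083), between 0.23 without *Trpc1-/-* replicate 1 and 0.36 without *Trpc1-/-* replicate 2. The gene lies 17.9 Mb from *Trpc1* on the same chromosome. *Slc7a11* (ENSMUSG00000027737, chr3:49892526-50443614) was at 9.34, 8.87, 10.2, and 10.1 CPM in WT and 12.6, 9.86, and 10.2 CPM in *Trpc1-/-* samples. Only *Trpc1-/-* replicate 1 was above all WT samples, and the logFC of 0.18 (SE 0.11) was 0.058 without it. Both ligase subunits were thus higher in *Trpc1-/-* samples, and the ratio of *Gclm* to *Gclc* CPM averaged 1.31 ± 0.0575 (SD, n = 4) in WT against 1.43 ± 0.0626 (SD, n = 3) in *Trpc1-/-* mice, with groups that overlapped.

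For *Txnrd1*, *Srxn1*, and *Prdx1* the groups overlapped. TXNRD1 is the cytoplasmic thioredoxin reductase, PRDX1 is a peroxiredoxin that removes hydrogen peroxide, and SRXN1 is the sulfiredoxin that restores overoxidized peroxiredoxins. *Txnrd1* (ENSMUSG00000020250, chr10:82833951-82897712) was at 51.0, 59.0, 59.0, and 59.5 CPM in WT and at 61.1, 58.9, and 59.6 CPM in *Trpc1-/-* samples. All samples but WT replicate 1 were within a few CPM of each other. The logFC of 0.068 (SE 0.076) was 0.016 without that sample and 0.12 among the 1300s. *Srxn1* (ENSMUSG00000032802, chr2:152105516-152111376) was at 18.4, 17.7, 18.7, and 17.3 CPM in WT and at 19.2, 18.2, and 16.5 CPM in *Trpc1-/-* samples. Its logFC was −0.0038 (SE 0.076) and changed sign with the normalization and with the sample left out, so no direction can be given. *Prdx1* (ENSMUSG00000028691, chr4:116685544-116700822) was at 93.7, 122, 133, and 126 CPM in WT and at 139, 132, and 137 CPM in *Trpc1-/-* samples. *Trpc1-/-* replicate 2 fell just below WT replicate 3. The logFC of 0.20 (SE 0.12) was 0.098 without WT replicate 1 and 0.33 among the samples with library numbers in the 1300s. *Prdx1-ps*, a copy in the table, had 0 counts in all samples.

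*Hmox1* and *Nqo1* showed the widest ranges. HMOX1 is the inducible heme oxygenase, which opens the heme ring and releases iron, carbon monoxide, and biliverdin, and NQO1 reduces quinones. *Hmox1* (ENSMUSG00000005413, chr8:75093621-75100589) was at 47.4, 78.5, 84.1, and 59.1 CPM in WT replicates 1 to 4 and at 122, 101, and 136 CPM in *Trpc1-/-* replicates 1 to 3. The groups did not overlap, with 16.5 CPM between the highest WT and the lowest *Trpc1-/-* sample, although the WT samples spread widely among themselves. The logFC was 0.83 (SE 0.21), a 1.78-fold difference, and lay between 0.69 without WT replicate 1 and 0.95 without WT replicate 3. Relative to *Hmox2*, the constitutive heme oxygenase, *Hmox1* CPM was 2.56 ± 0.534 times as high (SD, n = 4) in WT against 4.28 ± 0.619 times (SD, n = 3) in *Trpc1-/-* mice, without overlap. *Nqo1* (ENSMUSG00000003849, chr8:107388225-107403206) was at 5.54, 8.67, 9.79, and 8.12 CPM in WT and at 10.6, 8.50, and 10.5 CPM in *Trpc1-/-* samples. *Trpc1-/-* replicates 1 and 3 were above every WT sample and replicate 2 was not. The logFC of *Nqo1* was 0.29 (SE 0.19), 0.15 without WT replicate 1 and 0.47 among the 1300s.

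**Figure D2:**
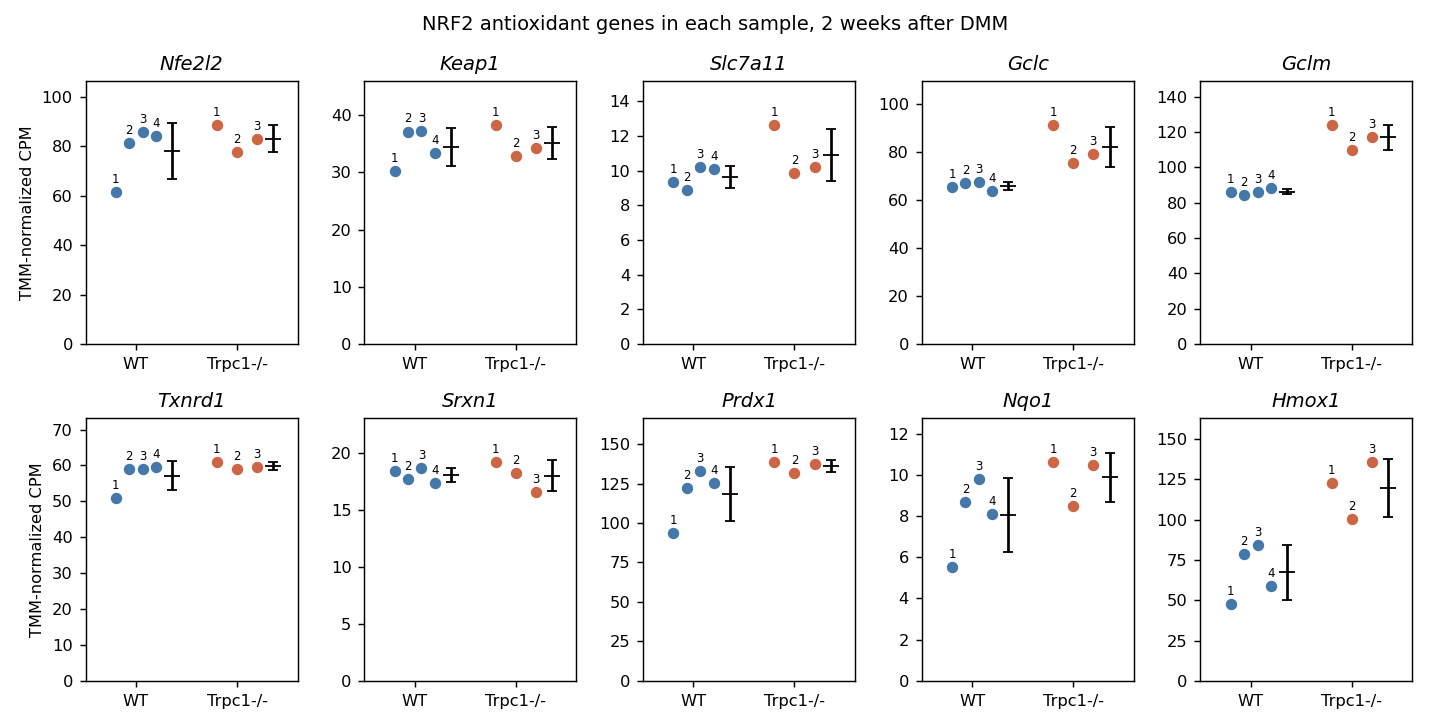
TMM-normalized CPM of each of the 10 genes in the 4 WT (blue) and 3 *Trpc1-/-* (orange) samples, numbered by replicate, with the mean and SD of each group in black and each axis starting at 0. The groups are apart for *Gclc*, *Gclm*, and *Hmox1* and overlap for the other 7 genes.

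Over the 10 genes, 9 had a positive logFC, with a median of 0.19 against −0.0088 over all tested genes. The groups did not overlap for 3 of the 10, *Gclc*, *Gclm*, and *Hmox1*, all higher in *Trpc1-/-* samples, whereas over all tested genes 7.15% were non-overlapping and higher and 6.42% non-overlapping and lower. With calls made at an adjusted *P* of 0.05, 0 of the 10 were called by the quasi-likelihood test of edgeR (0% of all genes, while 10.0% had an unadjusted *P* below 0.05), and DESeq2, the tool of the study, called those same 3 (1.79% of all genes, 0.962% called and higher). Leaving out WT replicate 1 added *Gclm* to the calls of edgeR (0.298% of all genes). In DESeq2, *Gclm* was called with any 1 of the 7 samples left out, *Hmox1* in 4 of these 7 fits (lost without WT replicate 4, *Trpc1-/-* replicate 1, or *Trpc1-/-* replicate 3), and *Gclc* in 2 (without WT replicate 1 or *Trpc1-/-* replicate 2). The share of all genes that DESeq2 called moved as well. It was 5.42%, 0.377%, 0.816%, and 1.72% without WT replicates 1 to 4, and 0.481%, 2.23%, and 0.225% without *Trpc1-/-* replicates 1 to 3. Because the genes were chosen with this comparison in view, nothing is read from these counts. Across the alternatives fitted with edgeR or limma-voom and DESeq2 with all samples, between 8 and 10 had a positive logFC, and only *Nfe2l2*, *Keap1*, and *Srxn1* changed sign.

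**Figure D3:**
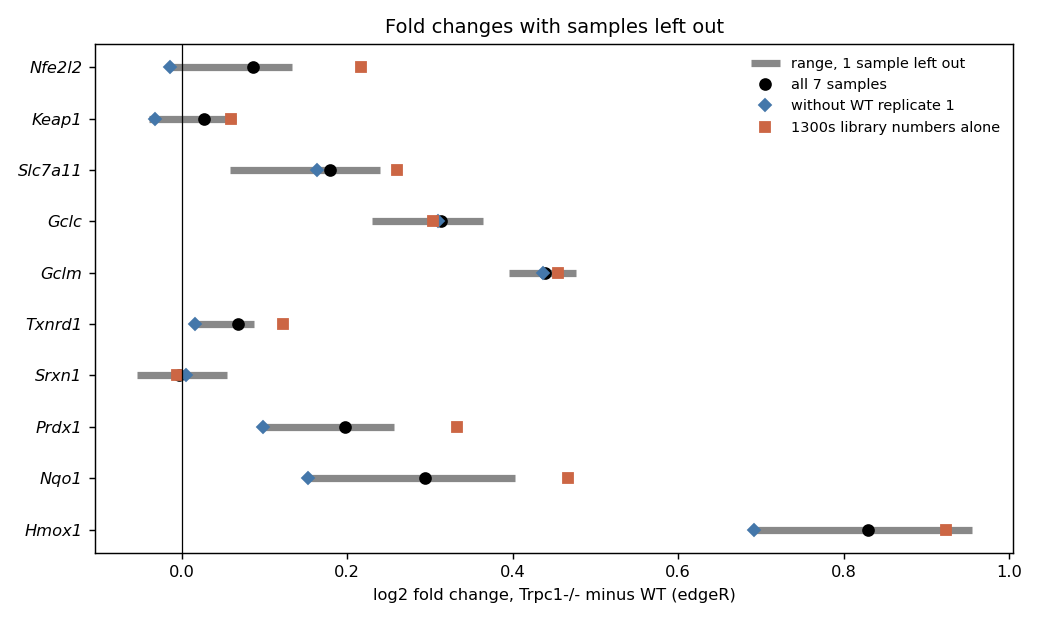
The logFC of each of the 10 genes with all 7 samples (black), its range with 1 sample left out in turn (grey), its value without WT replicate 1 (blue diamond), and its value among samples with library numbers in the 1300s (orange square, 2 WT and 3 *Trpc1-/-*). *Gclm* stays between 0.40 and 0.48, whereas *Nqo1* and *Prdx1* move with WT replicate 1.

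The spread among samples of 1 genotype is also given as a description, since the genes were selected on these same samples. Among WT samples, the SD of log2 CPM was 0.026 for *Gclm* and 0.039 for *Gclc*, and 99.0% and 97.3% of all tested genes had a larger one. It was 0.051 for *Srxn1* and 0.095 for *Slc7a11*. By contrast it was 0.38 for *Hmox1* and 0.35 for *Nqo1*, with 21.0% and 24.0% of genes above them. WT replicate 1 was the lowest WT sample for 6 of the 10 genes. It had 62.6% of the mean of the other WT samples for *Nqo1*, 64.2% for *Hmox1*, 73.3% for *Nfe2l2*, and 73.9% for *Prdx1*, but 99.9% for *Gclm*, 99.3% for *Gclc*, and 103% for *Srxn1*. Among *Trpc1-/-* samples, replicate 1 was the highest for 9 genes and replicate 2 the lowest for 9. *Hmox1* was highest in replicate 3 instead, and *Srxn1* lowest there.

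The other genes whose pattern over the 7 samples was most like those of *Gclm* and *Hmox1* were found by the root mean square (RMS) difference of log2 CPM, each gene centred on its own mean. The 5 genes nearest to *Gclm* were *Rhag* (RMS difference 0.030), *Tfdp2* (0.036), *Abcg2* (0.041), *Epb41* (0.041), and *Fech* (0.042). *Rhag* encodes a glycoprotein of the red cell membrane, *Epb41* the band 4.1 protein of the red cell skeleton, and *Fech* ferrochelatase, the last enzyme of heme synthesis. *Tfdp2* encodes a partner of E2F factors and *Abcg2* an exporter that carries porphyrins among others. *Rhag* was at 70.2, 71.9, 73.8, and 75.0 CPM in WT and 107, 89.8, and 98.0 CPM in *Trpc1-/-* samples, so that it shared with *Gclm* the nearly equal WT samples and the order of the *Trpc1-/-* samples.

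The 5 genes nearest to *Hmox1* were Gm10709 (0.066), *Cd5l* (0.081), *H2bu2* (0.091), *Hba-a2* (0.093), and H2bu1-ps (0.11). *Cd5l* encodes a protein secreted by tissue macrophages and *Hba-a2* an adult alpha-globin, whose near-identical copy *Hba-a1* could have shared its reads. The suffix in the name H2bu1-ps marks a pseudogene. *Cd5l* was at 17.8, 30.02, 31.6, and 21.1 CPM in WT and 44.2, 34.6, and 43.6 CPM in *Trpc1-/-* samples. Like *Hmox1*, it was lower in WT replicates 1 and 4 than in replicates 2 and 3. Without WT replicate 1, 3 of the 5 nearest genes were shared for *Gclm* and 3 of the 5 for *Hmox1*. Within the 10 genes, the nearest pair was *Nfe2l2* and *Prdx1* (RMS difference 0.066), *Gclc* and *Gclm* were 0.083 apart, and *Hmox1* was between 0.28 and 0.52 from every other member.

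**Figure D4:**
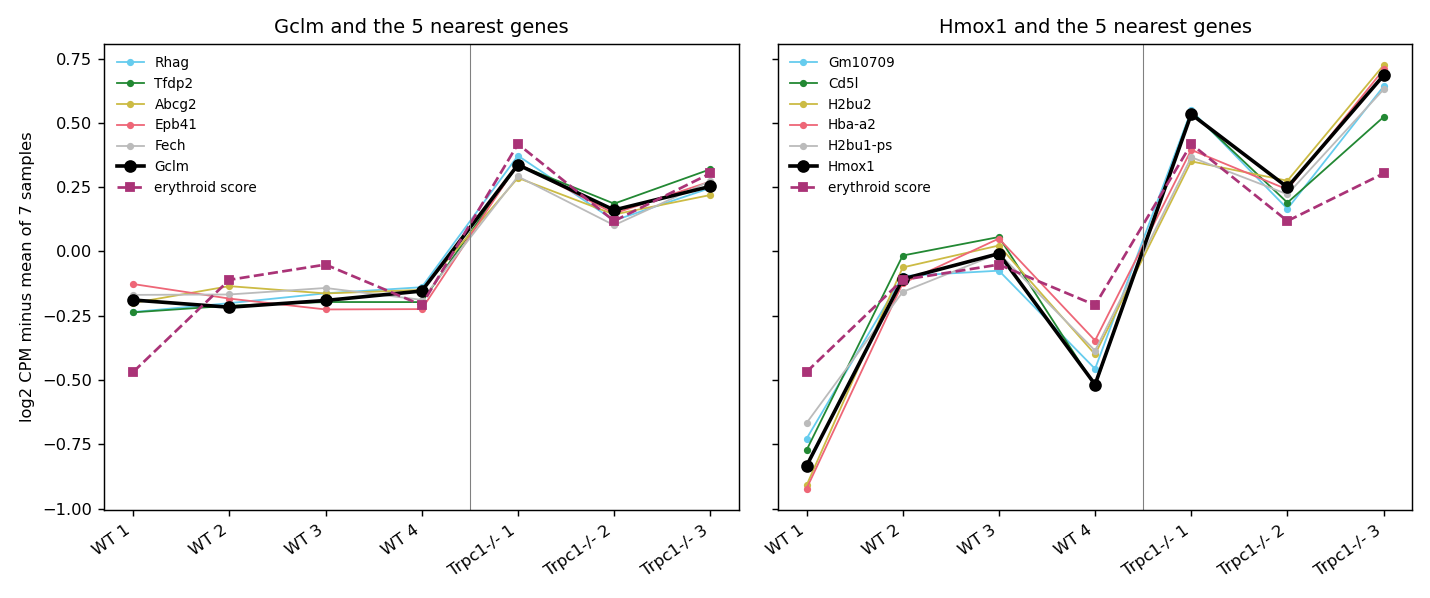
Log2 CPM of *Gclm* (left) and *Hmox1* (right), each in black, with the 5 nearest genes in colour, and the erythroid marker score (dashed), all centred on their mean over the 7 samples. Lines only link the points of 1 gene. *Gclm* and its nearest genes are level across WT, whereas *Hmox1* and its nearest genes are lower in WT replicates 1 and 4.

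Of 84 other genes of the NRF2 pathway, 78 passed the filter on low values. *Nfe2l3*, *Gpx2*, *Gsta1*, *Gsta2*, *Gsta3*, and *Gstm3* did not. Of the 78, 48 had a positive and 30 a negative logFC, with a median of 0.092, beside 7904 positive and 8525 negative over all tested genes. The quasi-likelihood test of edgeR called 0 of them. At an unadjusted *P* below 0.05 in that test, 11 were higher and 1 lower, beside 741 higher and 902 lower of all 16429 tested genes. DESeq2 called 2, *Slc40a1* and *Glrx5*, beside 1.79% of all genes. Leaving out WT replicate 1 raised the calls of DESeq2 to 8 of the 78, where it called 890 of all genes. There were 0 without WT replicate 2, *Trpc1-/-* replicate 1, or *Trpc1-/-* replicate 3, where it called 62, 79, and 37 of all genes. *Slc40a1* was also called without WT replicate 3 or 4, where *Glrx5* was not. Without *Trpc1-/-* replicate 2, DESeq2 called both, among 367 of all genes. The groups did not overlap for 14 genes, all higher in *Trpc1-/-* samples, beside the 7.15% of all genes given above. Unless another tool is named, adjusted *P* values below are those of edgeR over all tested genes.

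Among the 10 tested partners and regulators of NRF2, none passed and 7 had a positive logFC. *Mafk*, a small MAF protein, had the highest logFC, 0.21 (SE 0.095, adjusted *P* = 0.507), and *Maff*, another, the lowest, −0.33 (SE 0.23, adjusted *P* = 0.609). The repressor *Bach1* was at 73.2 to 85.4 CPM in WT and 77.8 to 85.7 CPM in *Trpc1-/-* samples. Its logFC was 0.060 (SE 0.081, adjusted *P* = 0.791). For *Mafg* (−0.13), *Cul3* (0.097), and *Sqstm1* (0.100), which encodes the KEAP1-binding autophagy receptor p62, adjusted *P* values lay between 0.667 and 0.771. Without WT replicate 1 the logFC of *Sqstm1* was 0.0020, that of *Mafg* −0.036, and that of *Maff* −0.15. Among the 1300s these values were 0.22, −0.23, and −0.54.

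Of the 23 tested genes that make or use glutathione, 14 had a positive logFC and none passed. *Mgst3*, a microsomal glutathione transferase, had the highest logFC of all 78 genes, 0.58 (SE 0.17, adjusted *P* = 0.408), with 21.96, 33.6, 38.0, and 33.7 CPM in WT and 48.2, 43.3, and 51.3 CPM in *Trpc1-/-* samples. Its groups did not overlap, and its logFC was 0.44 without WT replicate 1 and 0.78 among the 1300s. The lowest was *Gstm2* (−0.18, SE 0.15, adjusted *P* = 0.676). The groups did not overlap for 4 genes of this list, *Mgst3* and, named after their values were seen, *Gpx1* (logFC 0.45), *Gstm5* (0.41), and *Gstt1* (0.30), whose adjusted *P* values lay between 0.461 and 0.499. The groups overlapped for the genes that act beside *Gclc* and *Gclm* in synthesis, reduction, and uptake. *Gss*, glutathione synthetase, had a logFC of 0.097 (SE 0.13, adjusted *P* = 0.784), *Gsr*, glutathione reductase, 0.011 (SE 0.19, adjusted *P* = 0.987), and *Slc3a2*, the heavy chain that pairs with SLC7A11, 0.088 (SE 0.072, adjusted *P* = 0.665). Without WT replicate 1 the logFC was 0.0058 for *Gss* and −0.13 for *Gsr*, and among the 1300s it was 0.22 and 0.25.

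In the thioredoxin and peroxiredoxin system, 12 of 16 genes had a positive logFC and edgeR called none. *Prdx2*, the abundant peroxiredoxin of red cells, had the highest, 0.48 (SE 0.17, adjusted *P* = 0.453). It was at 199 to 306 CPM in WT and 308 to 422 CPM in *Trpc1-/-* samples. Its logFC was 0.36 without WT replicate 1 and 0.62 among the 1300s. *Glrx5*, a mitochondrial glutaredoxin of iron-sulfur cluster assembly that heme synthesis needs, was at 48.9, 49.0, 53.0, and 49.4 CPM in WT and 71.2, 56.6, and 65.8 CPM in *Trpc1-/-* samples, without overlap. The logFC of *Glrx5* was 0.37 (SE 0.089). Here too the adjusted *P* was 0.395 in edgeR, and in DESeq2 it was 0.0292. For *Txn1*, thioredoxin itself, the logFC was 0.22 (SE 0.24, adjusted *P* = 0.732), 0.030 without WT replicate 1, and 0.50 among the 1300s. *Sesn2* was lowest (−0.068, SE 0.10, adjusted *P* = 0.811).

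All 6 genes of heme breakdown and iron storage had a positive logFC. *Slc40a1*, ferroportin, the iron exporter, was at 158, 205, 211, and 212 CPM in WT and at 284, 254, and 296 CPM in *Trpc1-/-* samples, without overlap. The logFC of *Slc40a1* was 0.50 (SE 0.13). Its adjusted *P* was 0.395 in edgeR but 0.0151 in DESeq2. *Blvrb*, a biliverdin reductase, had the highest logFC of this list, 0.53 (SE 0.17, adjusted *P* = 0.433), also without overlap of the groups. The ferritin chains *Ftl1* (0.35, SE 0.18, adjusted *P* = 0.537) and *Fth1* (0.25, SE 0.11, adjusted *P* = 0.509) overlapped between the groups. Both genes have many processed copies that could share reads. Without WT replicate 1 the logFC was 0.41 for *Slc40a1*, 0.39 for *Blvrb*, 0.22 for *Ftl1*, and 0.31 for *Fth1*. Among the 1300s these values were 0.61, 0.67, 0.51, and 0.15. *Hmox2* had the lowest logFC, 0.034 (SE 0.24, adjusted *P* = 0.964), which turned to −0.16 without WT replicate 1 and was 0.31 among the 1300s.

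*Cat*, catalase, had the highest logFC of the 4 genes that remove superoxide and peroxide, 0.41 (SE 0.15, adjusted *P* = 0.455). *Sod3*, the extracellular superoxide dismutase, had the lowest of all 78 genes, −0.53 (SE 0.18, adjusted *P* = 0.446). Without WT replicate 1 these values were 0.30 and −0.46, and among the 1300s 0.52 and −0.72. *Sod3* was at 44.7, 43.3, 40.0, and 26.2 CPM in WT and 28.9, 27.2, and 23.8 CPM in *Trpc1-/-* samples, with WT replicate 4 inside the *Trpc1-/-* range. Without WT replicate 4, DESeq2 called it. Genes that supply NADPH were divided, 3 with a positive and 3 with a negative logFC. *Taldo1* had the highest, 0.21 (SE 0.27, adjusted *P* = 0.781, and 0.0013 without WT replicate 1), *Me1* the lowest, −0.34 (SE 0.22, adjusted *P* = 0.597), and *G6pdx* 0.11 (SE 0.28, adjusted *P* = 0.896). WT replicate 1 was low for *G6pdx*, at 60.3 CPM against 131 to 143 CPM in the other WT samples, and without it the logFC was −0.11. The logFC of *Me1* was −0.13 without that sample. Among the 1300s the logFC was 0.42 for *G6pdx*, 0.54 for *Taldo1*, and −0.59 for *Me1*. Of the 13 genes of quinone, epoxide, and carbonyl detoxification and of export, 10 had a negative logFC. The extremes were *Abcc3* (0.25, SE 0.10, adjusted *P* = 0.493) and *Akr1b8* (−0.20, SE 0.17, adjusted *P* = 0.676).

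**Figure D5:**
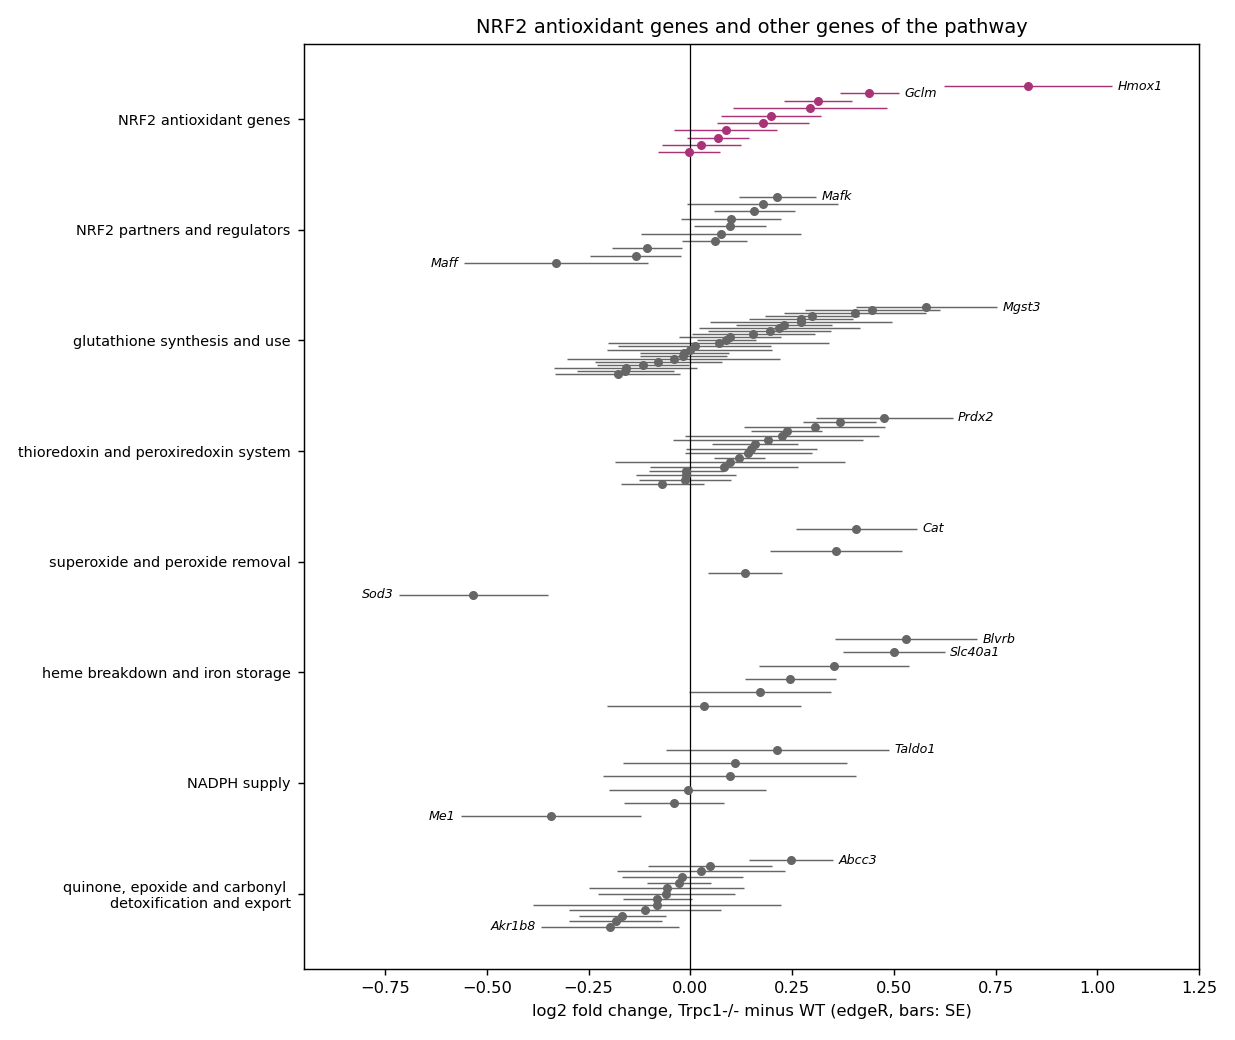
LogFC of *Trpc1-/-* over WT with its SE for the 10 NRF2 antioxidant genes (purple) and the 78 other pathway genes (grey), in 7 lists. Values run from −0.53 (*Sod3*) to 0.58 (*Mgst3*) among the other genes, and *Hmox1* lies beyond them at 0.83.

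Markers of other cell types are given beside these genes. All 18 erythroid markers with values had a positive logFC, between 0.14 and 1.03, and edgeR called 0 of them, whereas the calls of DESeq2 included *Alas2*, *Rhag*, and *Car1*. Summed over the list, they took 20409 to 37547 CPM in WT and 43338 to 58778 CPM in *Trpc1-/-* samples, and none was at 0 in any sample. Their mean log2 CPM was 8.25, 8.60, 8.66, and 8.51 in WT and 9.13, 8.83, and 9.02 in *Trpc1-/-* samples, 0.49 higher on average. By exact permutation the two-sided *P* was 0.0286, which is the lowest possible here, and 0.229 after adjustment over the 12 marker lists. *Trpc1-/-* replicate 2, the lowest of its group for 9 of the 10 NRF2 antioxidant genes, was also lowest for this score. That sample was lowest for the macrophage and neutrophil scores too. It was highest of its group for those of chondrocytes, osteoblasts and osteocytes, osteoclasts, endothelium, and B cells. Of 13 macrophage markers, 12 had a positive logFC, with sums of 580 to 803 CPM in WT and 797 to 902 CPM in *Trpc1-/-* samples. Their score was 0.31 higher and overlapped between the groups (*P* = 0.143 by exact permutation), and DESeq2 called *Siglec1*.

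All 12 chondrocyte markers had a negative logFC, with summed levels of 6446 to 6787 CPM in WT and 3639, 6871, and 3889 CPM in *Trpc1-/-* replicates 1 to 3. By this sum replicate 2 was thus not below WT. The score of these markers differed by −0.53 (*P* = 0.0857 by exact permutation). By the score, replicate 2 (7.54) lay above WT replicate 1 (7.26) and below WT replicates 2 to 4 (7.65, 7.72, and 7.69). The score differences of the other lists were −0.34 for osteoblasts and osteocytes, 0.017 for osteoclasts, −0.10 for endothelium, 0.30 for B cells, 0.095 for megakaryocytes, 0.46 for adipocytes, 1.35 for skeletal muscle, −0.27 for fibroblasts, and 0.25 for neutrophils. All of these overlapped between the groups, and their exact permutation *P* values lay between 0.0857 and 1. DESeq2 called *Sost* among the osteoblast and osteocyte markers and *Adipoq* among those of adipocytes. No marker of any list was at 0 in any sample. In WT replicate 1 the neutrophil score was 8.19, against 9.37 to 9.62 in the other WT samples. The part of these markers in the values of the NRF2 genes was not tested.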

How the data were processed

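RNA was extracted from knee joint tissue, ribosomal RNA was depleted, and stranded libraries were sequenced from both ends. The authors trimmed reads with Cutadapt 2.5, aligned them to GRCm38 with HISAT2 2.1.0, estimated transcript coverage with StringTie 2.0.3, and deposited estimated counts per gene, whole numbers that are not normalized. How reads of copies and pseudogenes were shared is fixed at that step.

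A gene was tested if 2 or more samples exceeded 1 CPM. TMM factors and quasi-likelihood tests came from edgeR 4.0.16 (R 4.3.3). Genotype was the only term, and *P* values were adjusted by Benjamini-Hochberg over every tested gene, with calls at 0.05. Each SE is the logFC divided by the square root of F. DESeq2 1.42.0, limma-voom (limma 3.58.1), other normalizations and filters, the replicate number as a block, the number series of the library names (1300s or 1700s, the latter WT alone), and each sample left out in turn were alternatives. Marker scores average log2 CPM (prior count 1) over a list, and were compared by two-sided exact permutation of the samples. The fit and the permutation test were tested on simulated data first. Each pool counts as 1 sample. Floors cover counting error only.

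The 10 genes, the pathway list, and the marker lists were chosen with earlier results of these data known. Named are all 10 genes; of the other pathway genes, 14 fixed by name, those called by either tool, and the highest and lowest logFC of each list; markers called by either tool, not all of which are reported here; and the 5 genes nearest to *Gclm* and to *Hmox1*. The 6 pathway genes that missed the filter, *Gpx1*, *Gstm5*, and *Gstt1* were named after values were seen. *Ahsp*, an erythroid marker, was not analysed here.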

Additional observations from a re-analysis of the deposited data

Results flagged for a closer look

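Among 52 sets of 4 WT values examined, 9 had a sample whose gap to its nearest neighbour took more of their range than Dixon's 95% critical value, which chance exceeds in about 1 in 20 groups. For *Txnrd1* the share was 0.941, with WT replicate 1 low. WT replicate 1 was also the low sample for *Txn1* (0.8295), *G6pdx* (0.851), *Slc40a1* (0.885), *Hmox2* (0.850), *Abcc3* (0.901), and the chondrocyte score (0.852). For *Glrx5*, WT replicate 3 was high (0.887). For the fibroblast score, WT replicate 4 was low (0.8294).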

How the results depend on the processing

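edgeR called 0 of 16429 genes, and 0 to 49 with 1 sample left out (49 without WT replicate 1). DESeq2 called 294 and limma-voom 1. Of the 10 NRF2 antioxidant genes, DESeq2 called 3, and 0 to 1 were called by edgeR with 1 sample left out. Of the 78 other genes DESeq2 called 2. With the replicate number as a block (replicates 1 to 3 of both groups), edgeR called 0 genes, DESeq2 called 53 with 0 of the 10 genes among them and *Sod3* of the other 78, and the logFC of *Gclm* was 0.45 and of *Hmox1* 0.80. To check whether the numbers pair samples, each gene was centred on the mean of its own group. These deviations correlated at −0.35, −0.20, and −0.044 across genes between same-numbered samples. By them 0 of 3 *Trpc1-/-* samples correlated best with their own number, so the numbers were not taken to pair samples. The sign of the logFC turned for *Nfe2l2* and *Keap1* without WT replicate 1 (−0.015 and −0.033) and for *Keap1* with total counts only (−0.034) and without *Trpc1-/-* replicate 1 (−0.039). With 1 sample left out, *Nfe2l2* reached 0.13 and *Keap1* 0.065. That of *Srxn1* was 0.0018 in DESeq2, 0.0011 with DESeq2's size factors, 0.026 without the filter, and between −0.055 and 0.054 with 1 sample left out. With total counts only, *Bach1* turned to −0.00097, *Gsr* to −0.060, and *Hmox2* to −0.042. *Gsr* ranged from −0.13 to 0.12, *G6pdx* from −0.11 to 0.22, and *Hmox2* from −0.16 to 0.12 with 1 sample left out, lowest without WT replicate 1. The osteoclast score difference turned from 0.017 to −0.023 with the median and −0.038 with total counts only. With 1 sample left out it lay between −0.16 and 0.20, that of neutrophil markers between −0.084 and 0.40, and that of megakaryocyte markers between −0.054 and 0.18. For the 10 genes, 144 alternative values kept the sign and lay within 1 SE of that reported, 6 kept the sign and lay further away, and 10 had turned in sign. The cause was not tested. The lowest count of any of the 10 genes was 263, for *Nqo1* in WT replicate 1.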
